A study of Homo sapiens with 2 samples.

Results

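Partially methylated domains were taken here as 100-kb windows in which fewer than 50% of the bisulfite reads at CpGs were methylated in the negative control library. Each window was a fixed stretch of chromosomes 1 to 22, counted from position 1, and it had to hold at least 200 CpGs with a read in both libraries. Of 28823 windows, 22705 met this minimum, and 4579 of those were under 50% in the negative control. These 4579 windows covered 457.9 Mb and 1683600 CpGs with reads in both libraries. The 5556 windows of 75% or more in the negative control served as the contrast, and the remaining 12570 windows lay between these levels.

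Methylation had been measured by whole-genome bisulfite sequencing (WGBS), in which unmethylated cytosines are converted and read as T. The cells were HEK293T, a human embryonic kidney line that carries the SV40 large T antigen and is not diploid. The Neg library was titled as the negative control, which the study describes as cells that were not transduced. The dCas9+3A+HOXA5 library came from cells with a nuclease-dead Cas9 carrying the SunTag peptide array, a scFv antibody fragment that binds this array and carries DNMT3A, and a guide RNA against HOXA5. These constructs were delivered by lentivirus. A treatment label of infection for 30 days with purification of fluorescent cells was attached to both samples, and the titles alone separated them. Each group was 1 library, so the differences given here have no replicate error to be compared with, and all intervals cover counting error only. The intervals take reads at different CpGs as independent, although 1 read can cover several CpGs, so they are too narrow. On chromosomes 1 to 22 the Neg library held 86000851 reads at CpGs and the dCas9+3A+HOXA5 library 44834966, a mean of 3.8 and 2.9 reads per listed CpG.

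Partially methylated domains are long blocks in which methylation has been lost from much of the sequence between genes, as is common in cultured and cancer cells. They overlap late-replicating chromatin at the nuclear lamina, are poor in genes and CpGs, and often hold silent tissue-specific genes. DNMT1 copies methylation after replication and DNMT3A adds it to unmethylated sites. The CpGs that lose methylation most readily are solo WCGW sites, which stand alone and have A or T on both sides, whereas CpG islands in the same blocks can carry methylation.

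Single CpGs of both kinds from the 3 longest domains show the sequence around a solo and an island site. Each is the solo WCGW CpG or the island CpG of its domain with the most reads in the shallower library. CpGs with more than 20 reads in either library were left out of this choice. Each is given with 71 bases of GRCh37 (the coordinates of hg19) on the plus strand. Capitals mark the CpG, with its flanking A or T where it is a solo WCGW site (the motif WCGW, in which W stands for A or T, present on both strands alike). Such solo sites made up 12.6% of covered CpGs in the partially methylated windows and 7.46% in the contrast windows.
Solo WCGW, intron of TMEM132B, chr12:125985433-125985503: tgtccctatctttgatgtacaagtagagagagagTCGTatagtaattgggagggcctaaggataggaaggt
Solo WCGW, intron of a long non-coding RNA gene, chr16:8007470-8007540: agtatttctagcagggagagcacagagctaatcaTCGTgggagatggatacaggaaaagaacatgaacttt
Island, exon of RBFOX1 outside its coding sequence, chr16:6533763-6533833: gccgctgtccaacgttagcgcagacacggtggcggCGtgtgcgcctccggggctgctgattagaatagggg
Island, coding exon of IRX1, chr5:3600110-3600180: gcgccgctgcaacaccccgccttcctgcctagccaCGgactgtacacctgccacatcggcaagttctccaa

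The TMEM132B site was methylated in 0 of 10 Neg reads and 0 of 14 dCas9+3A+HOXA5 reads. The chromosome 16 solo site had 2 of 12 and 1 of 9 methylated reads, against 4 of 6 and 12 of 14 at the RBFOX1 island CpG. The IRX1 island CpG of the chromosome 5 domain had 6 of 9 and 6 of 10. The other island and solo sites that the same rule picked in these domains are not reported here, and they do not all follow the order of those shown, so these reads illustrate single sites and give no comparison of the classes.

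Solo WCGW sites of a second kind are shown because they were unmethylated in Neg and methylated in dCas9+3A+HOXA5. They come from partially methylated windows among the 3 with the largest positive difference and were chosen after their values were seen.
GRM8 intron, chr7:126789777-126789847: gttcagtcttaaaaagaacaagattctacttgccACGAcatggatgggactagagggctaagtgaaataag
Outside annotated genes, chr11:97620860-97620930: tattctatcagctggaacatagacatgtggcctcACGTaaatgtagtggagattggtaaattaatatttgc

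The GRM8 site was methylated in 0 of 7 Neg reads and 7 of 7 dCas9+3A+HOXA5 reads. The chromosome 11 site had 0 of 5 and 7 of 7 methylated reads. Both sites went from no methylated read to no unmethylated read.

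The partially methylated windows did not move together. Summed over their reads, the methylation level was 29.8% in Neg against 33.2% in dCas9+3A+HOXA5, which differed by 3.40 points (counting interval 3.35 to 3.45). Where dCas9+3A+HOXA5 chose the windows in place of Neg, the summed difference reversed to -2.77 points, and with a minimum of 400 CpGs it was 0.299 points. The contrast windows went from 79.4% to 83.8%, a difference of 4.37 points, and all eligible windows from 66.0% to 71.2%, a difference of 5.25 points. The median partially methylated window, in contrast, differed by 0.0903 points, with quartiles of -4.57 and 13.1 points and a range of -34.0 to 66.8 points. The sign of this median turned with the definition of the windows: it was 1.10 points with 50-kb windows, 1.23 points with a minimum of 50 CpGs (chosen after seeing the data), -0.371 points with 200-kb windows, -2.32 points with a minimum of 400 CpGs and -2.78 points where dCas9+3A+HOXA5 chose the windows. The difference was above 0 in 2316 windows and below 0 in 2263. The contrast windows had a median difference of 5.31 points and a range of -12.7 to 16.1 points. Their SD over windows was 3.15 points against 14.9 points, but a level of 75% or more in Neg leaves them little room to be higher. The windows of 50% to under 75% in Neg had an SD between these, 6.89 points. Their median difference was 7.72 points, with a range of -37.4 to 38.7 points.

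**Figure D1:**
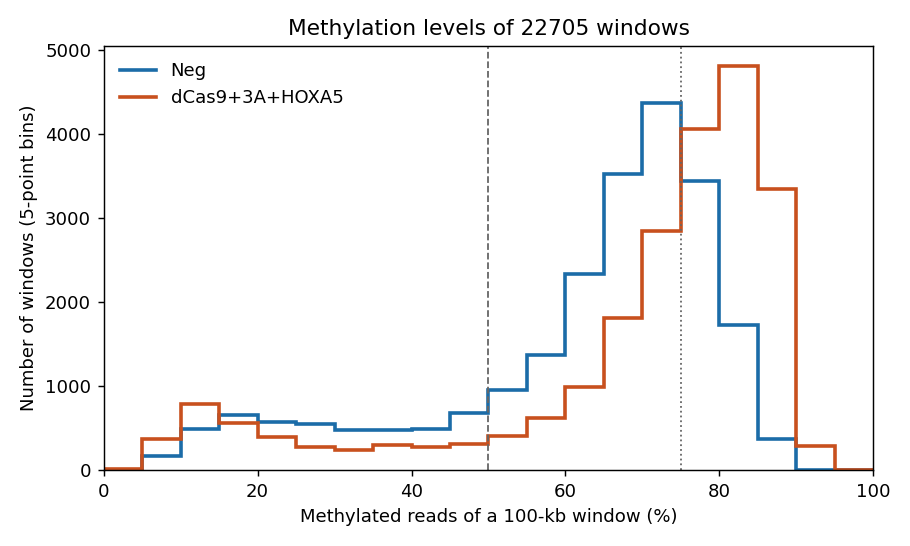
Number of 100-kb windows (vertical axis) by the percentage of methylated reads in 5-point bins (horizontal axis), for Neg and dCas9+3A+HOXA5 over the same 22705 windows; the dashed line marks 50% and the dotted line 75%. Each bin from 15% to 75% held fewer windows in dCas9+3A+HOXA5 than in Neg, and each bin from 0% to 15% and from 75% to 95% held more: the 10 to 15% bin went from 492 to 791 windows and the 80 to 85% bin from 1731 to 4809.

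A window was called different where the levels differed by more than 20 points and the adjusted p of Fisher's exact test on its reads, with Benjamini-Hochberg adjustment over all 22705 windows, was under 0.01. It compares 1 library with 1 other, not the conditions. Among the partially methylated windows, 779 (17%) had a called difference with the higher level in dCas9+3A+HOXA5, and 57 (1.24%) one with the lower level. Every eligible window that differed by more than 20 points also met the limit of p. The test thus removed none, and these calls rest on the 20-point limit alone. The count of windows called higher was 71 of 1295 (5.48%) with a minimum of 400 CpGs per window and 60 of 3538 (1.70%) where dCas9+3A+HOXA5 chose the windows. Over all eligible windows 6.06% were called higher and 0.396% lower, and none of the contrast windows was called either way. Of the windows of 50% to under 75% in Neg, 598 (4.76%) were called higher and 33 (0.263%) lower. Nothing is read from these shares, since the members were chosen by their low Neg level, which leaves them more room to be higher. With more than 10 points as the limit, 1335 partially methylated windows (29.2%) were called higher and 418 (9.13%) lower. These shares were 27.7% and 2.39% over all eligible windows, and 36.5% and 0.979% over windows of 50% to under 75% in Neg. The median counting interval of a window's difference reached 3.81 points to each side and the widest 6.43 points. The interval lay above 0 in 1792 partially methylated windows, below 0 in 1460, and held 0 in 1327. These counts are a description, since the intervals are too narrow and the windows were chosen by the same Neg reads.

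Windows of different Neg levels differed in how often they were higher, although most windows of each group were still under 50% in dCas9+3A+HOXA5. The 1903 windows under 25% in Neg had a median of 17.1% in Neg against 14.0% in dCas9+3A+HOXA5, and 1281 of them were lower in dCas9+3A+HOXA5. Of these deep windows, 1629 (85.6%) were still under 25%, 115 (6.04%) were higher by more than 20 points, and 16 reached 75% or more. The 2676 windows of 25% to under 50% in Neg had medians of 38.5% and 45.4%, and 664 (24.8%) of them were higher by more than 20 points. They parted in both directions: 220 reached 75% or more, while 488 were under 25%, and all 57 windows that were lower by more than 20 points belonged to this group. Neg chose and ordered these windows, so chance in the Neg reads also moves their differences, and the split is a description.

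In bins of 5 points of the Neg level, the median difference was -0.190 points at 5 to 10%, -2.91 points at 15 to 20%, 1.86 points at 30 to 35% and 12 points at 45 to 50%. It then declined again, to 8.73 points at 60 to 65% and 2.62 points at 85 to 90%. The median difference was therefore negative in each of the bins from 5% to 30% and positive in each above. On either side of the 50% limit the windows were alike: the 139 windows of 49 to 50% in Neg had a median difference of 10.5 points and the 167 windows of 50 to 51% one of 10.4 points. At the other limit, the 850 windows of 74 to 75% had a median difference of 6.86 points and the 817 windows of 75 to 76% one of 6.50 points.

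**Figure D2:**
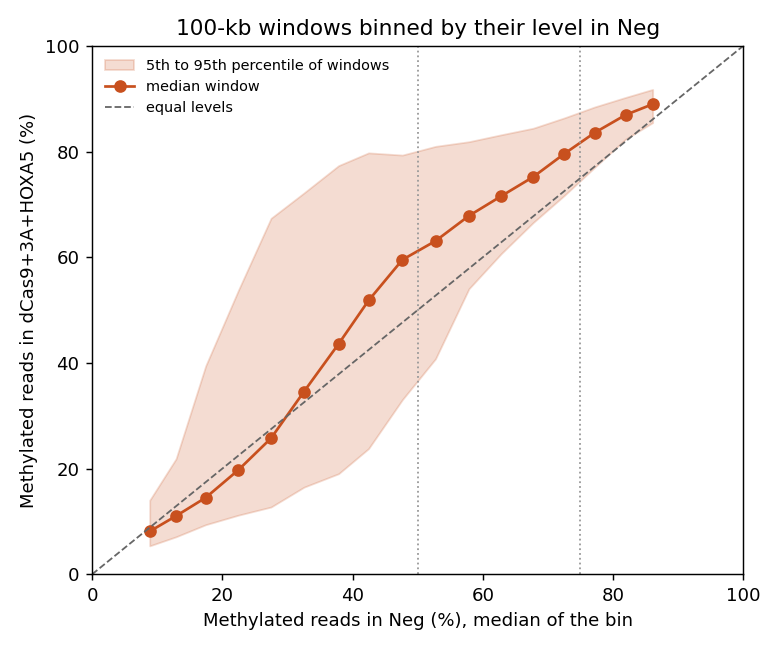
Methylated reads in dCas9+3A+HOXA5 (vertical axis, %) against the median Neg level of the bin (horizontal axis, %), for 100-kb windows in bins of 5 points that hold at least 20 windows; points are medians, the shaded band runs from the 5th to the 95th percentile of windows, the dashed line marks equal levels and the dotted lines 50% and 75% in Neg. The band is widest between about 25% and 50% in Neg, where the 40 to 45% bin runs from 23.8% to 79.8%, and narrow at both ends.

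Of the 4579 windows, 3372 (73.6%) were also under 50% in dCas9+3A+HOXA5, 971 (21.2%) were between 50% and 75%, and 236 (5.15%) were at 75% or more. Seen from the other library, 3538 windows were under 50% in dCas9+3A+HOXA5, of which 95.3% had been under 50% in Neg. The set of low windows in dCas9+3A+HOXA5 was thus nearly a subset of that in Neg.

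The windows differed between chromosomes. Chromosome 21 had the largest share of partially methylated windows, 150 of 323 (46.4%), and chromosome 13 the smallest, 18 of 784 (2.30%). The summed level of these windows was 38.4% in Neg against 52.0% in dCas9+3A+HOXA5 on chromosome 6, a difference of 13.6 points over 148 windows. On chromosome 22 it was 33.2% and 20.5%, a difference of -12.7 points over 45 windows. On chromosome 16, 280 of 760 windows were partially methylated. Their summed Neg level of 18.5% was the lowest of all chromosomes, and that in dCas9+3A+HOXA5 was 20.8%. The median difference of these windows was nevertheless -2.35 points, and 12 of them were higher by more than 20 points. The median difference of partially methylated windows was above 0 on 12 of 22 chromosomes and ranged from -11.5 points (chromosome 22) to 15.4 points (chromosome 6). In the contrast windows it was above 0 on all 22 chromosomes and ranged from 2.49 to 6.67 points.

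Many partially methylated windows did not form a domain of a megabase. The 4579 windows fell into 1510 runs of adjacent windows, of which 761 were single windows. Runs of at least 10 windows numbered 91, and these megabase domains held 1419 windows (31.0%), 141.9 Mb and the starts of 289 protein-coding genes. Windows inside these domains were lower in Neg than the other 3160, with a median of 19.8% against 33.2%. Their median difference was -2.39 points, and 107 (7.54%) were higher by more than 20 points. For the partially methylated windows outside them these values were 3.13 points and 672 windows (21.3%).

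The 91 megabase domains had summed levels of 11.8% to 42.1% in Neg, with a median of 23.4%, and of 8.69% to 74.6% in dCas9+3A+HOXA5, with a median of 19.4%. The level was lower in dCas9+3A+HOXA5 in 61 domains and higher in 30, and 77 domains differed by less than 10 points. The difference had a median of -2.44 points, with quartiles of -4.99 and 1.86 points. It exceeded 20 points in 6 domains, and 5 domains were lower by more than 10 points. Most megabase domains were thus still low in the library with scFv-DNMT3A.

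The 10 longest domains covered 29.4 Mb and held the starts of 20 protein-coding genes, many of them long genes of the nervous system. The domain of chr12:125700001-129200000, with TMEM132C, was at 15.2% in Neg against 14.3% in dCas9+3A+HOXA5. A single window of it, chr12:127600001-127700000, held 8406 Neg reads at 4.85%, where the median window held 1425, and without this window the levels were 16.9% and 14.2%. The domain of chr16:5200001-8700000, which holds the whole of RBFOX1, a neuronal splicing regulator, and TMEM114, was at 13.5% and 11.6%. The differences of its 35 windows ran from -7.04 to 4.47 points, and the lowest window was at 5.47% in Neg against 5.34% in dCas9+3A+HOXA5. The domain of chr5:2000001-5400000, with ADAMTS16 and the homeobox genes IRX2 and IRX1, was at 23.5% and 19.6%. The domain of chr11:130800001-133700000, with the neural cell adhesion genes OPCML and NTM, was at 18.2% and 13.9%, and that of CSMD1 on chromosome 8 at 21.4% and 16.7%. These 5 domains were low throughout in both libraries.

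Other long domains differed over a part of their length. The domain of chr2:124100001-127400000, with CNTNAP5 of the contactin-associated protein family, was at 15.0% and 18.0%, but its first 8 windows were all higher in dCas9+3A+HOXA5, 1 of them going from 8.14% to 58.2%. The domain of chr15:86400001-89000000, with AGBL1 and the neurotrophin receptor gene NTRK3, was at 21.1% and 19.5%, with window differences from -13.4 to 40.1 points. Without chr15:88700001-88800000, its window with the most Neg reads, it was at 19.6% and 18.9%. The domain of chr10:106100001-108500000, with SORCS3 and CFAP58, was at 22.5% and 31.3%. Its first 20 windows differed by at most 7.57 points upward, and its last 4 went from 15.2%, 23%, 37.4% and 44.9% to 74.2%, 82.6%, 83.2% and 82.9%. This step led into SORCS1, a sorting receptor gene like SORCS3, whose body was at 55.4% in Neg against 84.5% in dCas9+3A+HOXA5. SORCS1 starts in the next domain, chr10:108900001-111600000, which was at 16.1% and 17.2%. The body of SORCS3 itself was at 13.8% and 12%, so it did not share the large difference of its neighbour SORCS1. The tenth domain, chr7:144000001-146300000, with ARHGEF5 and the start of CNTNAP2, was at 30.4% and 48.2%, and each of its windows was higher in dCas9+3A+HOXA5. The median window of this domain had a ratio of dCas9+3A+HOXA5 to Neg reads 1.41 times that over all 22 chromosomes, near the top of the range of 0.752 to 1.46 over all domains, and the part of copy number in its difference was not tested.

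The 6 domains with the largest positive difference covered 7.6 Mb and the starts of 3 protein-coding genes, and they were picked by this value. The domain of chr20:10700001-11700000, without a protein-coding gene start, went from 31.9% to 74.6%, a difference of 42.7 points, and all of its 10 windows reached at least 59.8%. The domain of chr6:23100001-24200000, with NRSN1, a neuronal vesicle membrane protein gene, went from 42.1% to 71%. The domain of chr21:21100001-22600000, with the neural cell adhesion gene NCAM2, went from 31.6% to 55.5%, and that of chr20:37700001-38800000 from 33.1% to 55.2%. The domain of chr7:146500001-147900000, inside CNTNAP2 and with a read ratio 1.40 times that over all chromosomes, went from 34.4% to 56.0%, and that of chr1:97300001-98800000, with DPYD, which encodes the enzyme that breaks down pyrimidines, from 24.7% to 46.0%. None of these domains stayed under 45% in dCas9+3A+HOXA5, and the part of copy number in their differences was not tested.

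The 5 domains with the most negative difference covered 7.4 Mb. The domain of chr22:47600001-48800000 went from 33.6% to 15.3%, and all of its 12 windows were lower in dCas9+3A+HOXA5, with differences from -25.1 to -11.5 points. The domain of chr7:66900001-68600000 went from 33.5% to 15.5%, and that of chr7:70300001-71800000, with GALNT17, a gene of mucin-type glycosylation, from 29.1% to 17.3%. The domain of chr21:39000001-40100000, with the potassium channel genes KCNJ6 and KCNJ15 and the transcription factor gene ERG, went from 31.2% to 19.3%. The domain of chr15:93900001-95800000, with MCTP2, went from 33.1% to 23%, although its last window went from 47.9% to 68.1%. The ratio of dCas9+3A+HOXA5 to Neg reads, against that over all chromosomes, was 0.797 in the chr21 domain and 0.830 in the chr15 domain, near the bottom of the range over all domains, and 1.02 to 1.11 in the others, and the part of copy number in these differences was not tested.

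**Figure D3:**
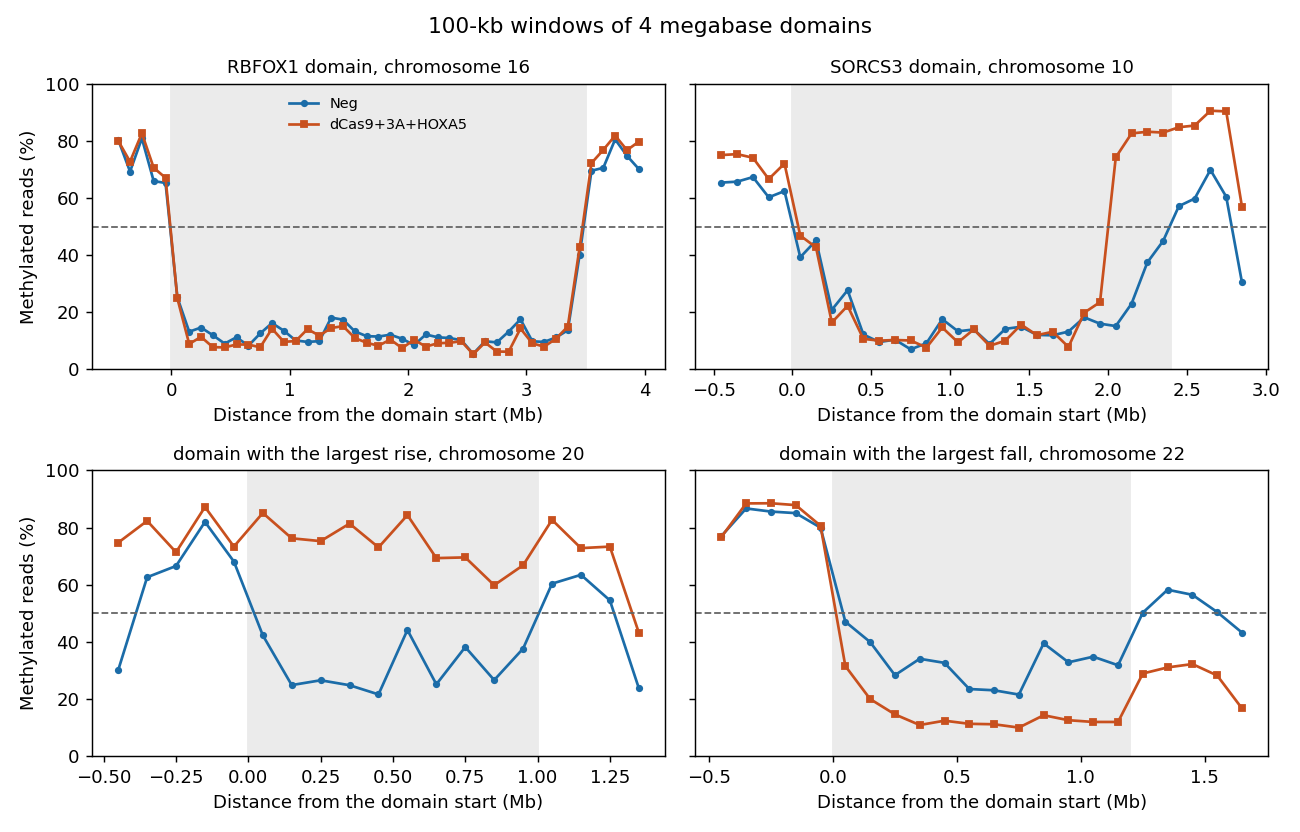
Methylated reads (vertical axis, %) of the 100-kb windows of 4 megabase domains and up to 5 windows to each side, by distance from the domain start in Mb (horizontal axis), in Neg and dCas9+3A+HOXA5; grey marks the domain, the dashed line 50%, and gaps are windows with fewer than 200 covered CpGs. The domains were chosen after their values were seen: RBFOX1 stayed between 5.34% and 42.7% in dCas9+3A+HOXA5, the SORCS3 domain was higher in its last 4 windows, and the domains on chromosomes 20 and 22 differed over their whole length, upward and downward.

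Neighbouring windows differed alike. Across 3069 pairs of adjacent partially methylated windows, the differences correlated with a Pearson's r of 0.853, as a description, since adjacent windows share their domain, libraries and base composition. For the contrast windows r was 0.368 over 2285 pairs, and for all eligible windows 0.722 over 21180 pairs. The SD of the differences between domains was 9.63 points and the median SD within a domain 4.85 points. The 779 windows called higher formed 468 runs on 21 chromosomes, of which 311 were single windows and 18 held at least 5 windows, up to 10 windows or 1 Mb. The 57 windows called lower formed 37 runs on 12 chromosomes, the longest of 3 windows.

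Runs of at least 5 windows called higher crossed few genes, and those that did were named after their values were seen. The run over DPYD, chr1:97600001-98500000, went from 22.6% to 49.4%. The run of chr1:101800001-102600000, over OLFM3, a secreted olfactomedin gene, went from 40.3% to 75.2%, and that of chr21:19200001-19800000, over CHODL and TMPRSS15, from 39.7% to 75.1%. The run over TNFSF4 and TNFSF18, cytokine genes of the tumour necrosis factor family, chr1:172800001-173300000, went from 39.2% to 75.1%. The run over PRLR, the prolactin receptor gene, and AGXT2, chr5:35000001-35600000, went from 29.4% to 52.7%. The run of chr17:51500001-52000000, with the kinesin gene KIF2B, went from 18.8% to 59.5%. The others of the 18 runs overlapped no protein-coding gene. All 18 runs lay between 49.4% and 80.6% in dCas9+3A+HOXA5.

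Single windows at the ends of the range of differences lay inside and outside genes. The window of chr7:126700001-126800000, inside GRM8, a metabotropic glutamate receptor gene, went from 9.09% (interval 7.11 to 11.5%) to 75.9% (72.3 to 79.1%). The whole body of GRM8 went from 17.2% to 67.5%. The windows of chr11:97500001-97600000 and chr11:97600001-97700000, without a protein-coding gene, went from 21.5% to 82.1% and from 16.1% to 78.9%. At the other end, windows of chr15:27400001-27500000 and chr15:27600001-27700000, in the GABA receptor gene GABRG3, went from 45.4% to 14.3% and from 37.9% to 8.99%. The body of GABRG3 went from 49.5% to 22.1%. The windows of chr1:209000001-209100000 and chr1:209100001-209200000 went from 46.3% to 12.4% and from 48.7% to 16.5%, and chr2:19400001-19500000 from 49.4% to 15.5%, with no protein-coding gene in any of them. These windows were picked as the ends of the range.

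The ends of the 91 megabase domains were set where the Neg level crossed 50%, so the fall of Neg across them was fixed by the choice of windows, and the differences inside were taken at CpGs chosen as low in Neg. In 20-kb bins, the level 480 to 500 kb outside was 65.6% in Neg against 69.8% in dCas9+3A+HOXA5. The libraries differed by 0.935 points in the last bin before the end. The level was, in the first bin inside, 41.8% and 42.3%, and 460 to 480 kb inside 20.6% and 20.3%. The difference was -2.89 to 0.781 points in the bins inside and 0.935 to 7.10 points in those outside. The highest value came from the bin 360 to 380 kb outside, with 180785 Neg reads where the other outside bins held 77167 to 106616, and the next highest was 4.87 points.

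**Figure D4:**
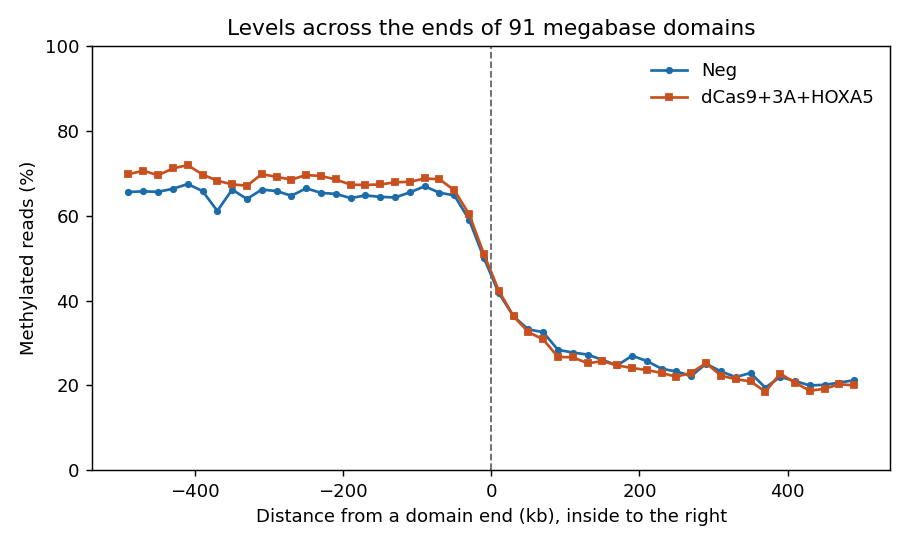
Methylated reads (vertical axis, %) in 20-kb bins by distance from the ends of the 91 megabase domains (horizontal axis, kb, inside to the right), summed over all ends, in Neg and dCas9+3A+HOXA5. dCas9+3A+HOXA5 is the higher curve in each bin outside the domains, by 0.935 to 7.10 points, and inside them the difference runs from -2.89 to 0.781 points; the ends were set by the Neg level, which fixes the fall of the Neg curve.

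The partially methylated windows were poorer in CpGs and gene starts than the contrast windows. Their median was 7.10 CpGs per kb against 10.6, and their GC content 39.2% against 42.0%. No protein-coding gene started in 77.7% of them, against 65.5% of the contrast windows and 44.7% of the windows in between. In Neg the median depth was 2.43 reads per reference CpG against 3.23, and in dCas9+3A+HOXA5 1.29 against 1.66. Low levels and low CpG content thus went together with fewer reads per reference CpG in the median window. At CpGs covered in both libraries, Neg reads per CpG were not fewer. They summed to 7399825 at 1683600 CpGs of the partially methylated windows and to 17122726 at 3947195 CpGs of the contrast windows.

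CpG content also went with the difference, by which the next sets of windows were picked. The 779 windows higher by more than 20 points had a median of 6.15 CpGs per kb and 37.6% GC. The 3743 windows within 20 points had 7.38 CpGs per kb and 39.6% GC, and the 57 windows lower by more than 20 points 9.15 CpGs per kb and 42.7% GC. Among windows of 25% to under 50% in Neg, those in the lowest tertile of CpG content went from a median of 38.2% to 59.8%, and 49.9% of these 816 windows were higher by more than 20 points. The 952 windows in the highest tertile went from 39.3% to 36.3%, and 4.94% of them were higher by more than 20 points. Among windows under 25% in Neg these shares were 11.4% of 704 and 1.39% of 577. At a like Neg level, the windows poorest in CpGs were thus the ones that were higher most often. The median of this depth ratio of both libraries was 1.07 in the windows higher by more than 20 points, 1.04 in those within 20 points and 1.02 in those lower by more than 20 points.

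Within the partially methylated windows the level differed with the local sequence. Solo WCGW CpGs outside islands were methylated in 13.8% of Neg reads and 22.5% of dCas9+3A+HOXA5 reads, a difference of 8.77 points. CpGs with at least 3 others within 35 bp and a G or C beside them were at 48.6% and 48.5%. Solo CpGs with a G or C beside them lay between, at 24.8% and 30.5%. The order of these classes was the same in the contrast windows. There, solo WCGW CpGs went from 66.8% to 77.9% and CpGs with at least 3 neighbours and a G or C from 84.8% to 88.2%. Not every class followed the number of neighbours. In the partially methylated windows, CpGs with A or T on both sides were at 21.0% in Neg with 1 neighbour and 18.0% with 2. Those with at least 3 were read more deeply, with 403288 Neg reads at 31260 CpGs, against 791497 at 212546 solo WCGW CpGs. The class of CpGs that was lowest in Neg was thus the one with the largest positive difference, in both kinds of window.

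**Figure D5:**
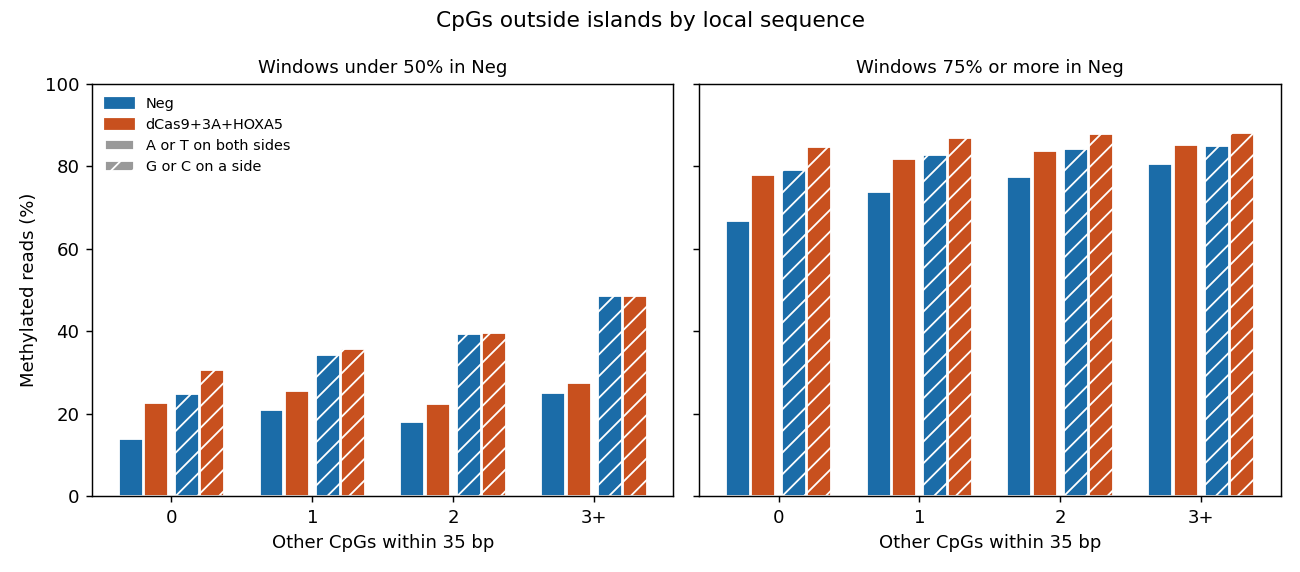
Methylated reads (vertical axis, %) of CpGs outside islands by the number of other CpGs within 35 bp (horizontal axis), for partially methylated windows (left) and contrast windows (right); blue is Neg, orange dCas9+3A+HOXA5, plain bars have A or T on both sides and hatched bars G or C on at least 1 side, each bar being 1 library without replicates. At 0 neighbours the plain bars go from 13.8% to 22.5% on the left and from 66.8% to 77.9% on the right, and the hatched bars at 3 or more on the left are level at 48.6% and 48.5%.

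The classes of CpG were also compared in windows that differed in opposite directions, which were picked by that difference. In the windows higher by more than 20 points, solo WCGW CpGs went from 19.2% to 57.1% and CpGs with at least 3 neighbours and a G or C from 48.4% to 76.7%. In the windows within 20 points, solo WCGW CpGs went from 12.7% to 16.4%, while the densely placed CpGs went from 48.4% to 45.1%. In the windows lower by more than 20 points, solo WCGW CpGs went from 20.2% to 5.05% and the densely placed CpGs from 56.7% to 33.2%.

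Islands at gene starts differed least among the gene and island features compared in these windows. CpG islands of the partially methylated windows, predicted from the reference, were at 35.5% in Neg against 37.3% in dCas9+3A+HOXA5. Islands within 500 bp of a protein-coding gene start were at 19.0% and 19.2%, and islands farther away at 39.1% and 42.4%. Of 2529 single islands with at least 10 covered CpGs, 179 (7.08%) were higher by more than 20 points and 217 (8.58%) lower, with a median difference of -0.450 points. Of 7240 such islands in the contrast windows, 2.72% were higher and 2.06% lower by as much. Even in the windows higher by more than 20 points, islands at gene starts went only from 8.47% to 13.3%. Protein-coding gene bodies outside islands and starts were at 32.5% and 34.6%, and sequence outside all genes and islands at 27.8% and 31.6%. In the contrast windows, islands at gene starts were at 26.1% and 25.2% and gene bodies at 82.1% and 86.4%.

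The share of methylated reads at the more deeply read single CpGs was more divided in dCas9+3A+HOXA5. At 97386 CpGs outside islands with at least 5 reads in both libraries, the expected share with 0 of 5 reads methylated was 39.4% in Neg against 46.7% in dCas9+3A+HOXA5. The share with 5 of 5 methylated was 9.07% and 17.6%, and that with 1 to 4 of 5 methylated 51.5% and 35.7%. Within the latter, the share with 1 of 5 methylated was 17.8% and 9.61%. In the windows within 20 points, of which 2826 of 3743 were within 10 points, the fully unmethylated share went from 41.6% to 51.3% and the fully methylated share from 8.70% to 14.3%. In the contrast windows the share with 1 to 4 of 5 went from 45.2% to 29.3%. CpGs in intermediate states were thus fewer in dCas9+3A+HOXA5 in both kinds of window. How duplicate reads were handled is not stated in the available methods, and its part in these shares was not tested. The part of conversion was not tested either. An unconverted cytosine moves a read from unmethylated to methylated, and the share of C reads at mitochondrial CpGs was higher in Neg (6.98% against 4.25%).

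Unconverted cytosines would add to low levels. The share of C reads at 439 mitochondrial CpGs, which are taken to be largely unmethylated, was 6.98% in Neg against 4.25% in dCas9+3A+HOXA5. In 632 islands of partially methylated windows that were under 10% in Neg, it was 2.70% and 5.08%, and in 1362 such islands of the contrast windows 2.95% and 4.29%. These islands were chosen as low in Neg. The part of conversion in differences of a few points, and in the shares of read states above, was not tested.

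The window of the HOXA5 guide, chr7:27100001-27200000, was itself a member, although it lay in a cluster of genes and held 1864 covered CpGs. It went from 39.0% to 69.0%, a difference of 30.0 points, and the body of HOXA5, a developmental transcription factor gene, from 4.80% to 59.6%. Of 39 HOX genes in eligible windows, 14 started in partially methylated windows, and these 14 lay in only 2 windows. The other window, with HOXB1 and HOXB2, which was not targeted, went from 43.4% to 73.6%. These windows held 1864 and 2020 covered CpGs, against a median of 305 over all partially methylated windows. Both were called higher, where 779 (17%) of all 4579 partially methylated windows were. The 14 HOX genes thus stand for 2 windows, including that of the guide, and are not 14 separate results.

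Gene families were unevenly placed. Of 18492 protein-coding genes that started in an eligible window, 1714 (9.27%) started in a partially methylated one, with a median difference of 1.90 points for their windows and 165 of the 1714 genes in windows higher by more than 20 points. Genes of a family share windows, so the genes are not independent, and the lists were made with earlier results of these data known. Olfactory receptors, which are expressed in the sensory neurons of the nose, started in partially methylated windows in 233 of 315 cases (74%), in 90 windows, with a median difference of -2.24 points and 6 genes higher by more than 20 points. Keratin-associated proteins of hair did so in 59 of 94 cases (62.8%), all in 10 windows, with a median difference of 0.877 points. Genes of synaptic adhesion did so in 9 of 20 cases, ionotropic glutamate receptors in 7 of 18, cadherins and other protocadherins in 8 of 31, potassium channels in 17 of 91 and GABA-A receptors in 3 of 11. Zinc fingers, which stand in clusters, did so in 147 of 495 cases, with 2 genes higher by more than 20 points. Ribosomal protein genes (0 of 87) and histone genes (0 of 81), which dividing cells need, did not lie in these windows.

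The named members of these lists, those in the windows with the most covered CpGs, differed in both directions. OR10H1 lay in a window that went from 26.2% to 17% and OR1I1 in one that went from 34.7% to 33.4%. KRTAP11-1 and KRTAP7-1 shared a window that went from 27.7% to 34.4%. The windows in which the synaptic genes CNTN4 and NRXN3 start went from 21.9% to 12.3% and from 21.8% to 16.1%. A start window does not stand for the whole gene: a run called higher over NRXN3, chr14:79400001-79700000, went from 29.5% to 74.7%. The start windows of the NMDA receptor genes GRIN2A and GRIN2B went from 27.5% to 21.1% and from 37.4% to 28.9%. GABRA6 and GABRB2 shared a window that went from 16.6% to 11.8%. Among cadherins the window of CDH13 went from 18.3% to 16.8% and that of CDH11 from 21.2% to 36.3%. Over the whole lists the median differences were 2.13 points for the 9 genes of synaptic adhesion, 10.2 points for the 8 cadherins and other protocadherins, -6.44 points for the 7 ionotropic glutamate receptors and -4.77 points for the 3 GABA-A receptors. Of these genes, 2 of synaptic adhesion and 2 cadherins or protocadherins lay in windows higher by more than 20 points.

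The other named members were mostly at 40% or more in Neg. The window of the potassium channel gene KCND3 went from 44.3% to 43.7% and that of KCNA2 from 48.6% to 53.1%. The bitter taste receptor genes TAS2R41 and TAS2R60 shared a window that went from 49.7% to 59.4%, as 2 of 7 such genes of 24. The clustered protocadherins PCDHB14 and PCDHB15 shared one that went from 47.4% to 53.4%, as 2 of 7 of 53. Over these 7 genes the median difference was -4.83 points. UGT2A1 and UGT2A2, which conjugate odorants and other small molecules, shared one that went from 48.8% to 75.3%. The single type I interferon gene of 17, IFNK, lay in a window that went from 49% to 55%. The proteasome genes PSMA2 and PSMD14, which are expressed in all cells, were the only 2 of 37 and lay in windows that went from 47.0% to 54.9% and from 40.3% to 44.9%. The zinc finger genes ZNF135 and ZNF606 shared one that went from 32.0% to 31.4%.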

How the data were processed

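Both HEK293T libraries were used, with 1 library per group, grouped by sample title. Per the methods of the study and the labels, the authors aligned trimmed reads with BSMAP 2.90 (genome hg19), whose methylation ratio module gave the values per CpG. How duplicates were handled is not given in these sources. The deposited values are, per the file headers, read counts per CpG (C, and C or T, both strands combined), an estimated count (the C or T count corrected for variants by the opposite strand) and a fraction (C over that estimated count).

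The main level was the summed C count over the summed C or T count at CpGs with at least 1 read in both libraries; the corrected counts were an alternative. Levels carry Wilson intervals and differences Newcombe intervals, at 95%. The two-sided Fisher's exact test was run per window with Benjamini-Hochberg adjustment over 22705 windows, with the study's limits for islands (20 points, adjusted p under 0.01). The code was also run on simulated reads, drawn independently at the depths of the windows. Real reads are not independent, so that run checks the code and not the calls. A megabase domain was a run of at least 10 adjacent windows; a window below the minimum of 200 CpGs ended a run, and 6118 windows were not eligible. Islands were predicted on GRCh37 (500 bp, GC of at least 55%, observed to expected CpGs of at least 0.65). Genes came from GENCODE release 44 mapped to GRCh37. Read states are exact expectations for 5 reads drawn without replacement. Genes were named by rule: the 3 longest that start in each of the 10 longest domains, those in the 5 windows at each end of the range of differences, the 2 members of each of 16 lists in the windows with the most covered CpGs, and HOXA5; some of these genes and sites are not reported here. Genes of the domains and runs picked by their difference, and of windows low in dCas9+3A+HOXA5 alone, were named after their values were seen. The levels of long domains without their deepest window were added after seeing the data. The members and lists were chosen with earlier results of these data known. Python 3.11.15, numpy 2.4.6, pandas 2.3.3, scipy 1.17.1 and matplotlib 3.10.9 were used.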

Additional observations from a re-analysis of the deposited data

How the results depend on the processing

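The difference of 3.40 points in partially methylated windows reversed to -2.77 points when dCas9+3A+HOXA5 chose the windows, which selects low values of the other library, and 60 of these windows were then called higher. It stayed positive under the other alternatives: 5.57 with at least 5 reads per CpG, 3.29 with all listed CpGs, 3.23 with corrected counts, 3.57 without islands, 2.53 without CpGs over 20 reads, 2.94 when odd CpGs chose and even CpGs measured, 1.78 and 4.96 for limits of 40% and 60%, 3.87 and 2.60 with 50-kb and 200-kb windows, 3.34 with shifted windows, and 0.299 with at least 400 CpGs per window. A minimum of 50 CpGs, chosen after seeing the data, gave 4.59. The contrast difference of 4.37 points was 4.28 with 5 reads, 4.73 as a mean over CpGs, 4.99 with all listed CpGs, 4.18 with corrected counts, 4.93 without islands, 4.32 without CpGs over 20 reads, 4.50 with odd and even CpGs, 6.79 when dCas9+3A+HOXA5 chose, 4.28 with 200-kb windows, 4.41 with shifted windows and 4.09 with 400 CpGs.

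The 4579 windows became 6912 at a limit of 60%, 9649 and 2224 with 50-kb and 200-kb windows, and 1295 with 400 CpGs, which follow from the changed definition. The 779 windows called higher became 413 and 1200 at limits of 40% and 60%, 1669 and 351 with 50-kb and 200-kb windows, 71 with 400 CpGs, 1533 with 50 CpGs, 1335 over 10 points and 356 over 30 points; that CpG-rich windows were called less often is in the values by CpG content. The 91 megabase domains became 129 when single windows below the minimum were bridged. Leaving out repeats was not run, because the reference does not mark them. No paired analysis was possible because there was 1 library per condition. Depth limits single windows: counting intervals of their differences reached 3.81 points to each side in the median window and 6.43 at most.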

Other observations

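Windows also became low that had not been so in Neg. Of the windows of 50% to under 75% in Neg, 166 were under 50% in dCas9+3A+HOXA5, with a median of 53.3% in Neg against 44.5% in dCas9+3A+HOXA5 and a median difference of -12.2 points. They lay on 21 chromosomes, 105 of them were adjacent to a window under 50% in Neg, and 33 were lower by more than 20 points. Among their 128 runs, 8 held at least 3 windows. The longest, chr1:30500001-31000000, went from 54.8% to 35.7%. The run of chr22:48800001-49200000, over TAFA5, which encodes a secreted chemokine-like protein, went from 54.5% to 30.4% and joined the domain of chromosome 22 with the most negative difference. The run of chr2:18900001-19300000 went from 52.9% to 22.4%, where the read ratio of both libraries was 0.736 times that over all chromosomes. The run over PTPRN2, a gene of secretory vesicles, chr7:157300001-157600000, went from 63.0% to 44.9%, where this ratio was 1.71 times that over all chromosomes. A run over CDH4, a cadherin gene, chr20:59800001-60100000, went from 53.7% to 38.3%, and one over SYNDIG1, a gene of excitatory synapses, chr20:24500001-24800000, from 53.2% to 39.0%. These windows were chosen by their values in both libraries, so they carry no test.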
